A study of Mus musculus with 10 samples.

Results

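Peroxiredoxins, sulfiredoxin and sestrins are 10 genes of peroxide handling: Prdx1, Prdx2, Prdx3, Prdx4, Prdx5, Prdx6, Srxn1, Sesn1, Sesn2 and Sesn3. They were taken by gene symbol from the deposited table, where each matched 1 of 21222 genes, and all 10 passed the filter on low counts. Their messages were measured by RNA sequencing in left ventricles of C57BL/6J mice, all male and 6 months old. Control hearts, non-transgenic, gave 4 libraries. A constitutively active form of Nrf2, the transcription factor encoded by Nfe2l2, was carried by the other hearts: 3 libraries came from a line with a low level (TGL, genotype CaNrf2-Low) and 3 from a line with a high level (TGH, genotype CaNrf2-High). TG stands for both lines, 6 libraries in all. Each transgenic level is 1 line, and the promoter of the transgene and any further allele were not given in the sources used here. Labels number the libraries from 0 within a group and do not say whether each was a separate animal, so p-values measure the spread between these libraries.

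Peroxiredoxins are abundant thiol peroxidases that reduce hydrogen peroxide, organic peroxides and peroxynitrite with a reactive cysteine. In Prdx1, Prdx2, Prdx3 and Prdx5 thioredoxin, itself kept reduced by thioredoxin reductase and NADPH, returns the cysteine to its active form, whereas Prdx6 uses glutathione. An excess of peroxide drives the cysteine of the typical peroxiredoxins to sulfinic acid, and sulfiredoxin, encoded by Srxn1, repairs it with ATP. Sestrins restrain the growth kinase complex mTORC1 through the GATOR complexes, and their genes are known targets of p53, FoxO factors and, for Sesn2, ATF4 and Nrf2. Nrf2 binds as a heterodimer with small Maf proteins to antioxidant response elements, and Srxn1 and Prdx1 are known targets in mouse cells.

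Promoter sequences are shown for Srxn1 and Prdx1, which were higher in TGH, and for Sesn2, whose level did not pass a test, because each holds a match to the core letters of the antioxidant response element. RefSeq start sites on GRCm38.p6 gave windows of 300 bases, 250 before and 50 after the start, for 9 of the 10 genes. Prdx6 had no window, so its promoter was not searched. The core was searched on both strands as TGACNNNGC, and a second, overlapping set of letters, TGANTCAGC, was added after the sequences had been seen. Each line is written 5′ to 3′ along the gene, and capitals mark the matches. The Srxn1 window lies on the plus strand at chr2:152105274-152105573, with TGAGTCAGC starting 45 bases before the start and GCTAGGTCA, a core match on the opposite strand, 28 bases after it. The Prdx1 window is on the plus strand at chr4:116685349-116685648, where GCTGAGTCA, 133 bases before the start, matches both sets of letters on the opposite strand. The Sesn2 window is on the minus strand at chr4:132510407-132510706 and holds the core match TGACAGAGC 36 bases before the start.
Srxn1 promoter: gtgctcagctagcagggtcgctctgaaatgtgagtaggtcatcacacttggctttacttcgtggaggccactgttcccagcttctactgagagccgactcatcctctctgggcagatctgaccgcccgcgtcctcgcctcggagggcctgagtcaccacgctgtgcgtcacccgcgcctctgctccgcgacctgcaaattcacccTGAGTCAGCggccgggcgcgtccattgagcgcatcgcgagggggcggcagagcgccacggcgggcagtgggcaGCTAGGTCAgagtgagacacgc
Prdx1 promoter: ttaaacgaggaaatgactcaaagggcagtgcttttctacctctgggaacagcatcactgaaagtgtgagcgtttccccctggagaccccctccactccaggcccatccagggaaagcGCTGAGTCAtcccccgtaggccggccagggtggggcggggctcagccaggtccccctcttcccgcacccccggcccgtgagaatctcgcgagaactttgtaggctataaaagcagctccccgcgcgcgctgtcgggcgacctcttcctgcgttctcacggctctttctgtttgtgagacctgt
Sesn2 promoter: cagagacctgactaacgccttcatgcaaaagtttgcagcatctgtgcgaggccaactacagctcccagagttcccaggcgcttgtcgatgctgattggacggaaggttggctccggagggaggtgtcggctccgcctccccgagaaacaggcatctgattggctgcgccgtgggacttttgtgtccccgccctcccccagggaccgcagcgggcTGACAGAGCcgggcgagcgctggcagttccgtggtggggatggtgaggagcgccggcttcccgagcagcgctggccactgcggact
Of 32851 promoter windows of this length, 12.39% held TGACNNNGC and 1.19% held TGANTCAGC. TGACNNNGC was found for 3 of the 9 genes with a window and TGANTCAGC for Srxn1 and Prdx1. A FoxO motif searched as GTAAACA lay in 1 of the windows of Sesn1, 22 bases after the start, and in 3.65% of all windows. No member window held TGATGNAAN, the letters searched for ATF4, which 3.95% of all windows held. A match of letters is a description and does not show binding.

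The libraries held 7076319 to 10896535 counts, so that 3 counts, the limit that a count of 0 allows, stood at 0.2595 to 0.4363 CPM (counts scaled by the TMM-adjusted total of the library). Control 2 stood furthest from its group: chi-square over degrees of freedom, where counting noise alone gives a ratio near 1, was 17.794 to 18.759 against the other controls and 3.002 to 7.318 among those. TGL 2 (11.489 and 11.895, against 4.628 between the others) and TGH 2 (11.009 and 11.809, against 6.821) also stood apart from their groups. Cardiomyocyte markers were present in every library and summed to 57749 to 62131 CPM in control, 55394 to 57524 in TGL and 48939 to 52940 in TGH, and 5 of the 6 were called lower and 1 higher in TGH against control. Of these calls, those of Tnnt2, Pln and Actc1 ended without control 0 (edgeR adjusted p = 0.0726, 0.0767 and 0.0584), control 1 (0.122, 0.0543 and 0.0868) or TGH 2 (0.119, 0.0581 and 0.0926). The calls of Tnnt2 (0.161) and Actc1 (0.0828) also ended without TGH 1, that of Actc1 without TGH 0 (0.0721), and that of Tnnt2 without control 3 (0.0951), TGL 0 (0.0539) or TGL 1 (0.0597), as edgeR adjusted p. Fibroblast markers summed to 874 to 1139, 1177 to 1532 and 1419 to 1460 CPM, with 5 of 6 called higher in TGH, and macrophage markers to 123 to 184, 114 to 173 and 194 to 218 CPM, with 3 of 6 called higher. Endothelial markers summed to 725 to 804, 594 to 821 and 537 to 661 CPM, with 3 of 6 called lower in TGH (Pecam1, Cdh5 and Vwf), smooth muscle markers to 1171 to 2007, 1331 to 1722 and 1400 to 1858 CPM, with 1 of 5 called lower (Rgs5), and lymphocyte and neutrophil markers to at most 9.45 CPM. Beside these counts of markers, 32.4% of all tested genes were called in TGH against control, 16.0% higher and 16.4% lower. In bulk tissue, fewer cells of a type and less RNA per cell cannot be told apart, and the part of these markers in the results that follow was not tested. Nfe2l2 stood at 88.3 to 164 CPM in control, 129 to 182 in TGL and 182 to 254 in TGH, higher in TGH against control by 0.80 ± 0.19 (log2 ± SE, edgeR adjusted p = 0.0078), and which part of the counted message comes from the transgene cannot be told from the table.

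In TGH, 7 of the 10 genes were higher and 2 lower than in control, and Sesn2 was the one without a call. The share of all 14511 tested genes called in that comparison was 32.4%, with 16.0% higher and 16.4% lower. The median log2 fold change of the 10 genes was 0.44, against -0.01 over all tested genes. In TGL 2 genes were higher (Prdx6 and Srxn1) and 1 lower (Sesn1), where 6.29% of all genes were called, 4.15% higher and 2.14% lower. With both lines joined, 5 were higher (Prdx1, Prdx4, Prdx6, Srxn1 and Sesn3) and 1 lower (Sesn1), where 17.4% of 14265 genes were called, 9.34% higher and 8.03% lower. Between the lines, Prdx1, Prdx3, Prdx6 and Srxn1 were higher in TGH than in TGL (4 of 10), where 9.64% of all genes were called, 5.53% higher and 4.11% lower. That count of 4 was 1 without TGL 1 or TGL 2, when Srxn1 kept its call, and 2 without TGH 1. All calls are at an edgeR adjusted p under 0.05. The comparisons with control share the same 4 control libraries, and the members' own values are therefore set side by side. Ranges of CPM did not overlap with control for 6 of the 10 genes in TGL, 9 in TGH and 6 with both lines joined. That held for 20.2%, 38.9% and 14.1% of all tested genes. Between the lines it held for 5 of the 10 genes and 28.4% of all.

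**Figure D1:**
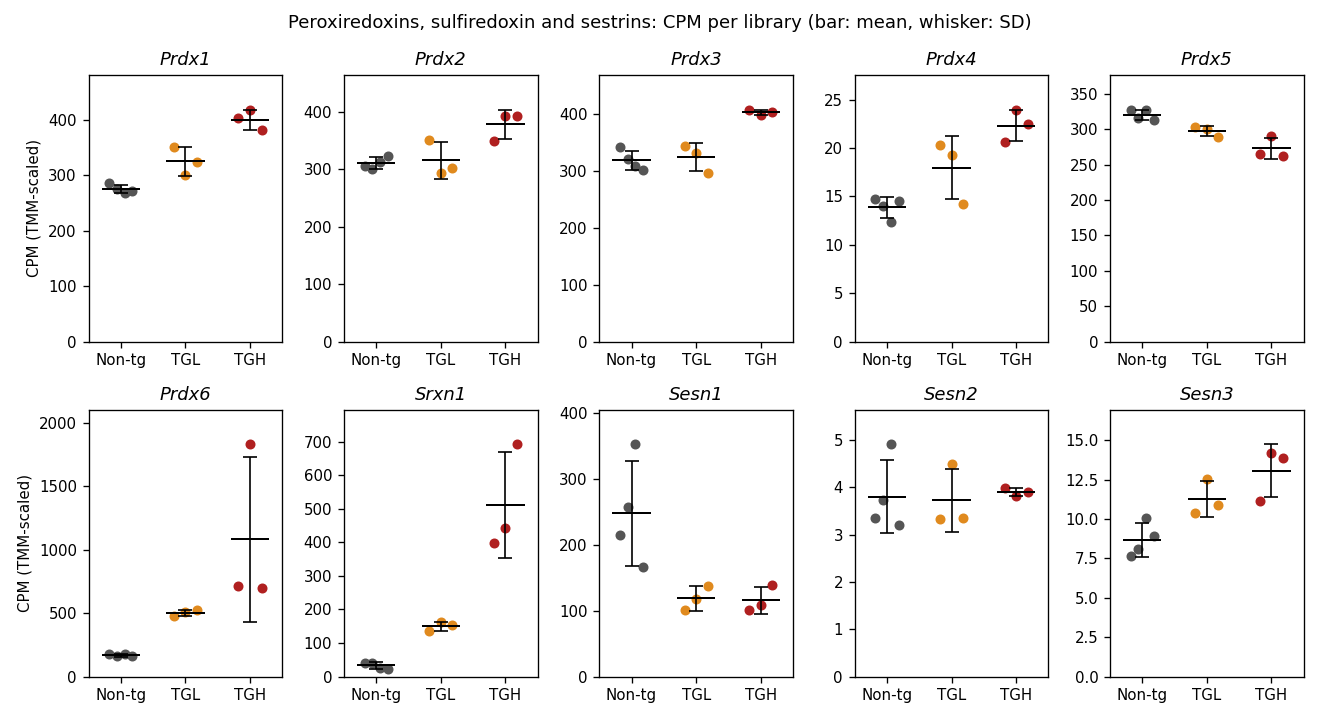
CPM of each of the 10 genes (y axis, linear, from 0) in the 4 control (Non-tg), 3 TGL and 3 TGH libraries, 1 point per library, with the mean as a bar and the SD as a whisker. Srxn1 and Prdx6 step up from control to TGL to TGH, Sesn1 is lower in both lines, Sesn2 stays between 3.2 and 4.9 CPM, and 1 TGH library reaches 1832 CPM for Prdx6.

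The plot of CPM by library shows 3 shapes. Srxn1 and Prdx6 stepped up from control to TGL to TGH, Prdx1, Prdx4 and Sesn3 moved by smaller steps in the same order of group means, and Sesn1 dropped in both lines, whose ranges overlapped. Prdx2 and Prdx3 left the control range mainly in TGH, and Prdx5 moved the other way.

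Srxn1 (ENSMUSG00000032802, GRCm38 chromosome 2, 152105516 to 152111376, plus strand), whose protein repairs overoxidised peroxiredoxins, had the largest fold change of the 10 genes. Its CPM were 41.6, 41.7, 25.2 and 23.6 in control, 135, 161 and 153 in TGL, while TGH had 399, 442 and 692. The 3 groups did not overlap, the controls fell into a higher and a lower pair, and TGH 2 lay above the other TGH libraries. Mean CPM rose from 33.0 ± 9.97 (SD, n = 4) in control to 150 ± 13.3 (n = 3) in TGL and 511 ± 158 (n = 3) in TGH. The rise was 4.54-fold in TGL (log2 2.18 ± 0.23 SE, edgeR adjusted p = 0.000169) and 15.5-fold in TGH (log2 3.95 ± 0.24, edgeR adjusted p = 3.26e-07). TGH exceeded TGL 3.41-fold (edgeR adjusted p = 0.000864). Every call on Srxn1 held under each alternative run, with log2 fold changes of 2.04 to 2.32 in TGL and 3.67 to 4.10 in TGH.

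Prdx6 (ENSMUSG00000026701, chromosome 1, 161240112 to 161251219, minus strand), the glutathione-dependent member that also acts as a phospholipase, rose furthest among the peroxiredoxins. It stood at 177, 158, 180 and 159 CPM in control, 478, 506 and 526 CPM in TGL, while TGH had 715, 1832 and 699 CPM. Control and TGL libraries were tightly grouped, with a coefficient of variation of 6.91% and 4.84%, while TGH 1 lay 2.56-fold above the next TGH library. Means were 169 ± 11.6 (SD, n = 4), 503 ± 24.4 (n = 3) and 1082 ± 649 CPM (n = 3). Prdx6 rose 2.99-fold in TGL (log2 1.58 ± 0.27 SE, edgeR adjusted p = 0.00488) and 6.42-fold in TGH (log2 2.68 ± 0.28, edgeR adjusted p = 2.45e-05). Without TGH 1 the rise in TGH was 4.20-fold (edgeR adjusted p = 6.89e-08). TGH exceeded TGL 2.15-fold (edgeR adjusted p = 0.0345) and 1.41-fold without TGH 1 (edgeR adjusted p = 0.00881). That difference between the lines was not called without control 0 (edgeR adjusted p = 0.0519), control 1 (0.051), TGL 0 (0.0992), TGL 1 (0.101) or TGL 2 (0.074), nor in a fit of the 2 lines alone (0.0835). Between 0.12 and 3.81 CPM were counted for Prdx6b, and 0.156% of the 50-base words of Prdx6 occur in other genes, Prdx6b among them.

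Prdx1 and Prdx2 encode the typical peroxiredoxins of the cytosol. Prdx1 (ENSMUSG00000028691, chromosome 4, 116685544 to 116700822, plus strand) had 286, 275, 267 and 272 CPM in control, 352, 300 and 324 CPM in TGL, while TGH had 402, 417 and 381 CPM. No library of one group overlapped another group's range. Prdx1 rose 1.45-fold in TGH (log2 0.54 ± 0.07 SE, edgeR adjusted p = 0.000131), and its difference in TGL was not called (log2 0.24 ± 0.07, edgeR adjusted p = 0.0644, and 0.0198 by DESeq2). With both lines joined the log2 fold change was 0.40 ± 0.09 (edgeR adjusted p = 0.0154). TGH exceeded TGL 1.23-fold (edgeR adjusted p = 0.0269), which was not called without TGL 1 (0.118), TGL 2 (0.0766), TGH 0 (0.0571) or TGH 1 (0.104), or in the fit of the 2 lines alone (0.0634). Of the 50-base words of Prdx1, 8.811% occur in other genes, among them processed pseudogenes, so a small part of its reads could be divided among copies.

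Prdx2 (ENSMUSG00000005161, chromosome 8, 84969587 to 84974834, plus strand), which is also a main peroxidase of red blood cells, had 306, 300, 313 and 324 CPM in control, 351, 293 and 302 CPM in TGL, while TGH had 349, 393 and 393 CPM. All TGH libraries lay above all controls, while the TGL range enclosed the control range. Prdx2 rose 1.22-fold in TGH (log2 0.28 ± 0.08 SE, edgeR adjusted p = 0.0166), a call lost without TGH 1 (edgeR adjusted p = 0.0694). The difference of Prdx2 in TGL was 0.02 with a 95% interval of -0.15 to 0.19 on the log2 scale. TGH against TGL was not called for Prdx2 (log2 0.26 ± 0.08, edgeR adjusted p = 0.0739), but was called without TGL 0 (0.0376), without TGH 0 (0.0486) and by DESeq2 (0.0413). Summed erythroid markers stood at 737 to 1135 CPM in control, 722 to 1017 in TGL and 719 to 805 in TGH. Of the 50-base words of Prdx2, 12.043% occur in other genes, among them the processed pseudogene Tdpx-ps1, and exons of Junb and Rnaseh2a overlap Prdx2 on the other strand. The strand of counting was not given in the sources used here, so reads of these genes cannot be told apart where they overlap.

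Prdx3 (ENSMUSG00000024997, chromosome 19, 60864051 to 60874556, minus strand) encodes the peroxidase of the mitochondrial matrix. Its CPM were 341, 320, 308 and 302 in control, 343, 331 and 296 in TGL, while TGH had 406, 398 and 403. TGH libraries were close to each other and above all others, and the TGL range enclosed that of the controls. Prdx3 rose 1.27-fold in TGH (log2 0.34 ± 0.07 SE, edgeR adjusted p = 0.00355), whereas its log2 difference in TGL was 0.03 with a 95% interval of -0.13 to 0.18. TGH exceeded TGL 1.24-fold (edgeR adjusted p = 0.0231). That call between the lines was lost without TGL 1 (edgeR adjusted p = 0.0626), TGL 2 (0.0886), TGH 0 (0.0512), TGH 1 (0.0634) or TGH 2 (0.0563).

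Prdx5 (ENSMUSG00000024953, chromosome 19, 6906697 to 6910106, minus strand), the atypical member found in mitochondria, peroxisomes and cytosol, was the one peroxiredoxin that fell. It went from 326, 315, 327 and 313 CPM in control to 303, 300 and 289 CPM in TGL, while TGH had 265, 290 and 262 CPM. All transgenic libraries were below all controls, and TGH 1 lay within the TGL range. In TGH Prdx5 was lower (log2 -0.23 ± 0.06 SE, edgeR adjusted p = 0.0147), a call lost without TGH 2 (edgeR adjusted p = 0.0505). The TGL difference of -0.11 ± 0.06 was not called (edgeR adjusted p = 0.341). With both lines joined the log2 fold change was -0.17 (edgeR adjusted p = 0.0848), and it was called by DESeq2 (0.0397) and with 3 groups in the fit (0.034). In the authors' deposited table Prdx5 had a log2 fold change of -0.16 with an adjusted p of 0.0464. Trmt112 overlaps Prdx5 on the other strand, accounts for 15.544% shared words and was counted at 7.76 to 11.5 CPM. With the strand of counting not given, reads of Prdx5 and Trmt112 cannot be told apart where they overlap. The part of this overlap in the values of Prdx5 was not tested.

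Prdx4 (ENSMUSG00000025289, chromosome X, 155323918 to 155340754, minus strand), the peroxiredoxin of the endoplasmic reticulum, was the scarcest of the family. It had 14.7, 14.0, 12.3 and 14.5 CPM in control, 20.3, 19.3 and 14.3 CPM in TGL, while TGH had 20.6, 23.9 and 22.5 CPM. TGL 2 lay within the control range, and all TGH libraries lay above all others. Prdx4 rose 1.61-fold in TGH (log2 0.69 ± 0.13 SE, edgeR adjusted p = 0.00192), and its 1.30-fold difference in TGL was not called (edgeR adjusted p = 0.124) but was called without TGL 2 (log2 0.51, edgeR adjusted p = 0.0221). The call of both lines joined (log2 0.54 ± 0.13, edgeR adjusted p = 0.0188) was lost without control 1 (0.0553) or control 2 (0.0512). Among 8 tested genes listed for oxidative folding, Pdia3 (-0.69), Pdia4 (-0.90) and Pdia6 (-0.76), which shuffle disulfides in new proteins, were lower in TGH on the log2 scale. The sulfhydryl oxidase Qsox1 was higher (0.72). These were 1 higher and 3 lower of 8, with a median of -0.10, where 32.4% of all genes were called in TGH. The call of Pdia4 ended without TGH 0 (edgeR adjusted p = 0.0525) or TGH 1 (0.0634), and that of Pdia6 without control 0 (0.0606), control 1 (0.0581), TGH 0 (0.0866) or TGH 1 (0.0998).

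**Figure D2:**
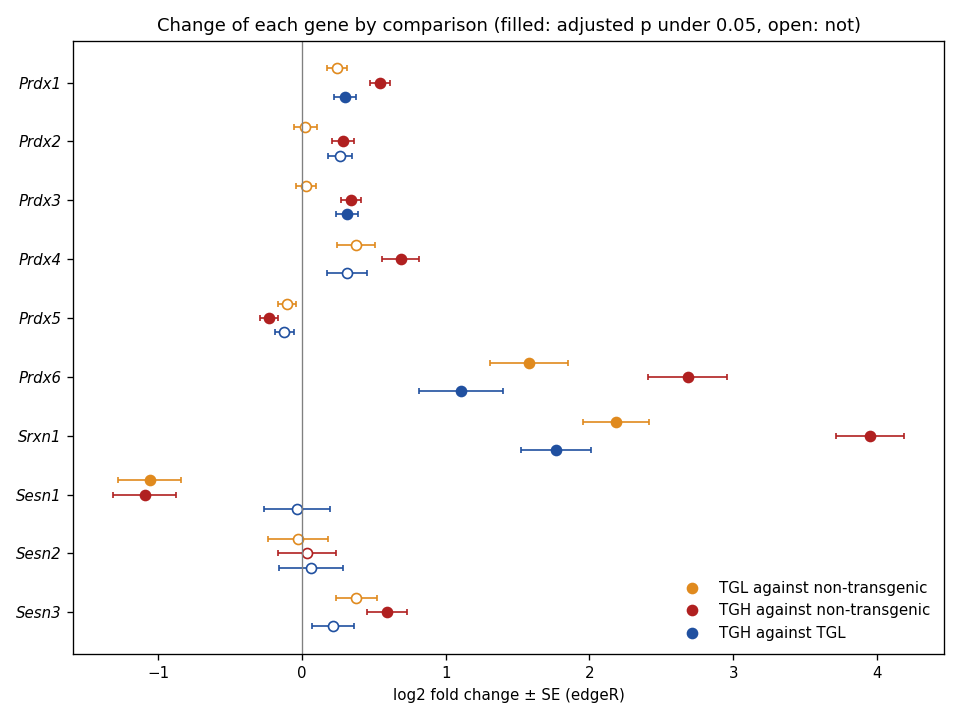
Log2 fold change with its SE (x axis) of each of the 10 genes for TGL against control, TGH against control and TGH against TGL, from edgeR, with filled points for an adjusted p under 0.05. Only Srxn1 and Prdx6 are filled in all 3 comparisons, and Sesn1 is filled against control in both lines but near 0 between them.

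The plot of log2 fold changes sets the comparisons of each gene together. TGL points of Prdx2, Prdx3 and Sesn2 lie near 0. Among the peroxiredoxins the log2 fold changes in TGH run from -0.23 (Prdx5) to 2.68 (Prdx6).

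Levels of different genes were compared per kilobase of merged exons. In control hearts the order of mean CPM per kb was Prdx3 (215 ± 11.7, SD), Prdx5 (150 ± 3.42), Prdx2 (102 ± 3.31), Prdx1 (90.4 ± 2.54), Sesn1 (62.2 ± 19.9), Prdx6 (35.1 ± 2.42), Srxn1 (11.7 ± 3.54), Prdx4 (6.60 ± 0.519), Sesn2 (1.09 ± 0.222) and Sesn3 (0.568 ± 0.0697). Prdx1 and Sesn1 overlapped (lowest Prdx1 library 87.8, highest Sesn1 library 88.6), and the other neighbours in this order did not, as with Prdx2 (lowest 98.3) above Prdx1 (highest 93.8) and Sesn1 (lowest 41.7) above Prdx6 (highest 37.5). In TGH hearts Prdx3 (272 ± 3.04) was followed by Prdx6 (225 ± 135) and Srxn1 (181 ± 56.0), and Prdx1 (131 ± 5.98), Prdx5 (127 ± 7.15) and Prdx2 (124 ± 8.36) had ranges that overlapped. The Prdx6 range of 146 to 381 CPM per kb enclosed all TGH values of Prdx3 and most of those of Srxn1. With merged exons the place of Prdx6 among these 3 is thus within its spread. Every TGH value of Prdx3 (lowest 269) lay above every value of Srxn1 (highest 245). With the length of the principal transcript instead, Prdx6 (293 to 767 CPM per kb) lay above all TGH values of Prdx3 (269 to 275). Srxn1 (182 ± 56.1) then had a mean below those of Prdx2 (235 ± 15.8) and Prdx5 (216 ± 12.1). Its range of 142 to 246 enclosed theirs. The order in control also changed with that length: Prdx5 (254 ± 5.8) stood above Prdx3 (215 ± 11.7). Sesn1 (63.9 to 136) enclosed Prdx6 (66.3 to 75.5) in control. Prdx4 (14.0 ± 1.1) had a mean above that of Srxn1 (11.7 ± 3.55), with ranges that overlapped, as did those of Sesn2 and Sesn3.

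The summed message of the 6 peroxiredoxins was 599 ± 15.7 CPM per kb in control (SD, n = 4), 681 ± 29.3 in TGL (n = 3) and 891 ± 149 in TGH (n = 3). Without Prdx6 the sums were 563 ± 14.3, 577 ± 34.3 and 666 ± 14.1 CPM per kb. Prdx6 held 5.93, 5.57, 6.31 and 5.65% of the sum in control, 13.9, 15.7 and 16.7% in TGL, while TGH had 18.5, 35.9 and 18.1%. Its share thus left the control range in each transgenic library, and in TGH 1 it was the largest share of any peroxiredoxin. The share of Prdx5 went from 25.0 ± 0.466% to 20.4 ± 0.485% and 14.5 ± 1.48%, and that of Prdx3 from 35.9 ± 1.12% to 32.1 ± 1.44% and 31.1 ± 5.04%. Against 100 CPM per kb of Prdx1 to Prdx4 together, Srxn1 had 2.82 ± 0.795 in control, 12.2 ± 1.8 in TGL and 33.7 ± 10.4 in TGH. These shares depend on the length taken for each gene: with the principal transcript in place of merged exons Prdx6 held 8.15 ± 0.45%, 20.7 ± 1.74% and 31.3 ± 11.6%, and Prdx5 (29.3%) stood ahead of Prdx3 (24.8%) in control.

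**Figure D3:**
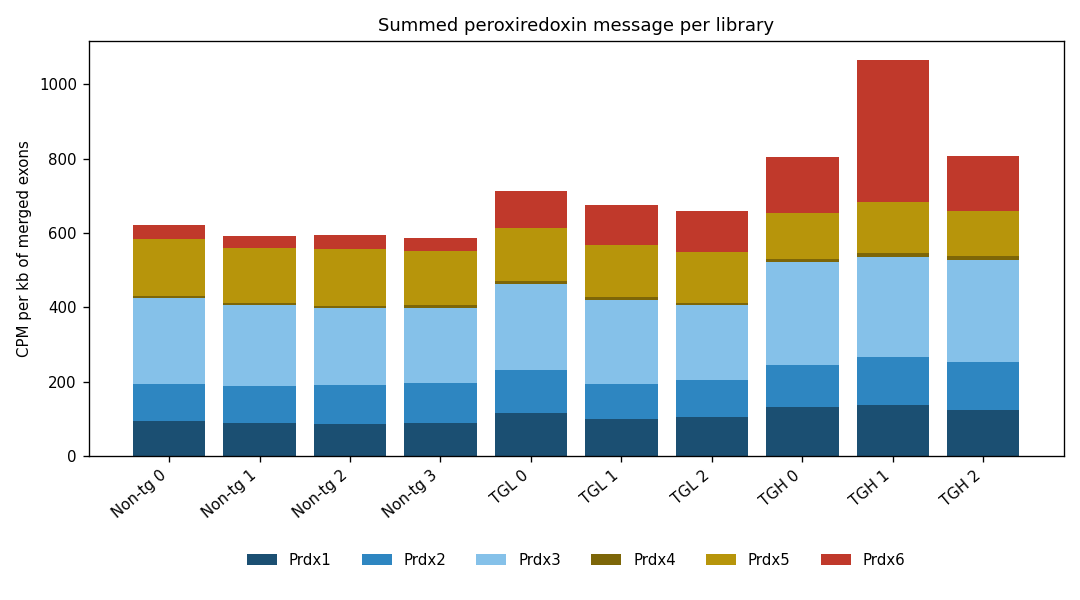
Stacked CPM per kb of merged exons (y axis, from 0) of the 6 peroxiredoxins in each of the 10 libraries. The sum lies at 586 to 621 in control (Non-tg), 657 to 714 in TGL and 804 to 1063 in TGH, and the Prdx6 segment grows most.

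The stacked plot by library shows Prdx6 as the segment that changes most, above all in TGH 1, which has the tallest column. The other 5 segments together reached 655, 682 and 660 CPM per kb in TGH, against 553 to 585 in control.

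The enzymes that supply peroxiredoxins with electrons did not all move. Txnrd1, the cytosolic thioredoxin reductase, rose from 66.0 ± 6.20 CPM in control (SD, n = 4) to 110 ± 15.1 in TGL and 255 ± 45.8 in TGH (n = 3 each), called in both lines (edgeR adjusted p = 0.00596 and 7.26e-07). Txn1, the cytosolic thioredoxin, was called in TGH alone among the 2 lines (log2 0.71 ± 0.08, edgeR adjusted p = 6.92e-05), and TGH exceeded TGL (log2 0.58, edgeR adjusted p = 0.00206). The mitochondrial partners Txn2 (0.00 ± 0.07) and Txnrd2 (0.07 ± 0.11), which serve Prdx3, were not called in TGH on the log2 scale (edgeR adjusted p = 0.983 and 0.62). Nnt, which makes mitochondrial NADPH, was lower in TGH (-0.40 ± 0.12, edgeR adjusted p = 0.0295), though not without TGH 0 (0.101) or TGH 1 (0.0861). Txnip, an inhibitor of thioredoxin, was not called (-0.42 ± 0.27, edgeR adjusted p = 0.256). Gstp1, which aids the reduction of Prdx6, had 0.25 ± 0.09 (edgeR adjusted p = 0.059, and 0.0119 without TGH 0). Of 9 genes of thioredoxin supply 3 were higher and 1 lower in TGH (median log2 fold change 0.19), and 1 was higher in TGL. Of all tested genes 32.4% were called in TGH and 6.29% in TGL. Without TGH 0, Gstp1 and Txnl1 (edgeR adjusted p = 0.0386) were called too and Nnt was not, which made 5 higher in TGH.

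Other enzymes that remove peroxides rose alongside. Of 6 tested genes 5 were higher in TGH (median log2 fold change 0.66) and 3 in TGL (Gpx1, Gpx3 and Gpx8). Of all tested genes 16.0% were higher in TGH and 4.15% in TGL. The 5 of the list in TGH were Gpx1 (0.72 ± 0.09, log2 ± SE, edgeR adjusted p = 0.000119), Gpx3 (0.85 ± 0.12, edgeR adjusted p = 0.000316), Gpx4 (0.57 ± 0.08, edgeR adjusted p = 0.000256) and Gpx8 (0.73 ± 0.10, edgeR adjusted p = 0.000291), which use glutathione or thiols of the endoplasmic reticulum, and catalase (Cat, 0.60 ± 0.10, edgeR adjusted p = 0.000752). In TGL the calls of all 3 ended without TGL 0 (edgeR adjusted p = 0.0833, 0.0654 and 0.0871) or control 0 (0.111, 0.0623 and 0.061). That of Gpx1 also ended without control 1 (0.12), control 3 (0.0535), TGL 1 (0.0849), TGL 2 (0.102) or TGH 1 (0.063), without the low-count filter (0.0572) and with the replicate block (0.0637), that of Gpx3 without TGL 1 (0.0636) and that of Gpx8 without control 1 (0.0609), again as edgeR adjusted p. Gpx7 was not called (0.34 ± 0.20, edgeR adjusted p = 0.22). Among 8 classical Nrf2 targets, 6 were higher in TGH (median log2 1.65), beside 16.0% of all genes. Gclm stood at 3.95 and Nqo1 at 1.34, and Hmox1 was not called (0.39 ± 0.50, edgeR adjusted p = 0.572).

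**Figure D4:**
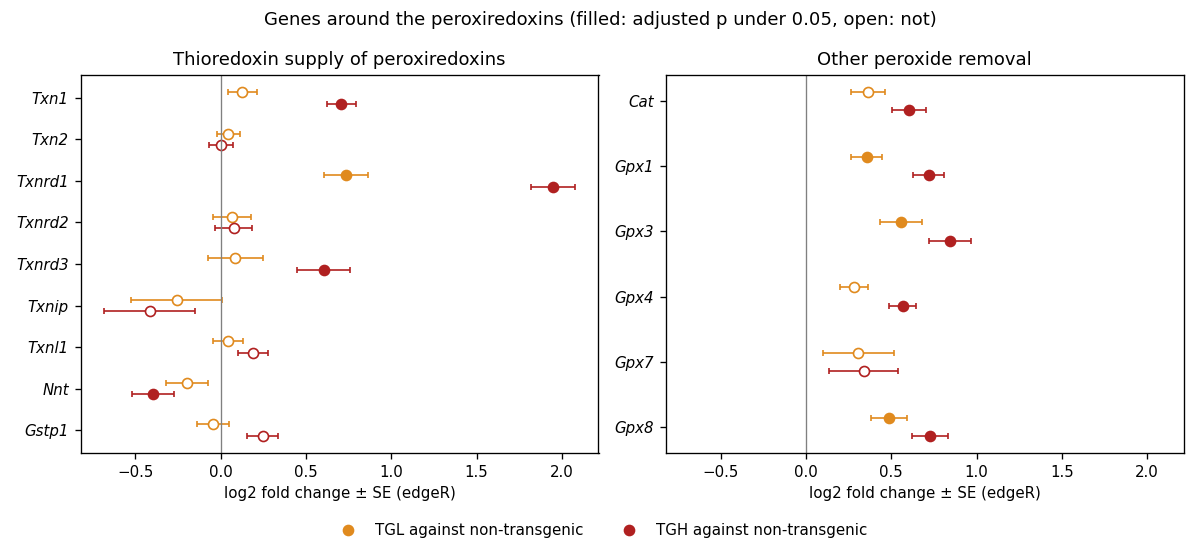
Log2 fold change with its SE (x axis) against control in TGL and TGH for 9 genes of thioredoxin supply (left) and 6 of other peroxide removal (right), from edgeR, with filled points for an adjusted p under 0.05. Txnrd1 reaches 1.95 in TGH, Txn2 and Txnrd2 stay near 0, and 5 of the 6 genes on the right are filled in TGH.

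In that plot of partner genes the cytosolic pair Txn1 and Txnrd1 stands to the right of the mitochondrial pair Txn2 and Txnrd2. Prdx3, the mitochondrial client, was nevertheless higher in TGH by 0.34 on the log2 scale.

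Sesn1 (ENSMUSG00000038332, chromosome 10, 41809935 to 41908424, plus strand) was the dominant sestrin and fell in both lines. Its CPM were 215, 258, 353 and 166 in control, 101, 118 and 138 in TGL, while TGH had 100, 108 and 139. The controls ranged widely, with control 2 highest, but every control exceeded every transgenic library, and the TGL and TGH ranges were nearly the same. Mean CPM went from 248 ± 79.3 (SD, n = 4) to 119 ± 18.8 and 116 ± 20.4 (n = 3 each). Sesn1 was lower in TGL (log2 -1.06 ± 0.22 SE, edgeR adjusted p = 0.0144) and in TGH (-1.09 ± 0.22, edgeR adjusted p = 0.00298). Without control 2 the log2 fold changes were -0.84 (edgeR adjusted p = 0.0137) and -0.88 (edgeR adjusted p = 0.00282). The TGL call was lost without TGL 0 (-0.94, edgeR adjusted p = 0.0848) or TGL 1 (-1.06, edgeR adjusted p = 0.0675). Between the lines the log2 difference was -0.04 with a 95% interval of -0.54 to 0.47, which does not show that the lines are alike.

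Sesn2 (ENSMUSG00000028893, chromosome 4, 132492032 to 132510501, minus strand) was not called in any of the 4 comparisons. It had 3.34, 3.73, 4.90 and 3.20 CPM in control, 3.32, 4.49 and 3.34 CPM in TGL, while TGH had 3.98, 3.81 and 3.89 CPM, from 23 to 44 counts in a library. All TGH libraries lay within the control range. The 95% interval of its log2 fold change was -0.40 to 0.47 in TGH and -0.49 to 0.43 in TGL, so a change of the size seen for Sesn1 lies outside both. Sesn3 (ENSMUSG00000032009, chromosome 9, 14275067 to 14333101, plus strand) had 7.62, 8.08, 10.04 and 8.93 CPM in control, 10.4, 12.5 and 10.9 CPM in TGL, while TGH had 11.1, 14.2 and 13.8 CPM. Every transgenic library exceeded every control. Sesn3 rose 1.51-fold in TGH (log2 0.59 ± 0.14 SE, edgeR adjusted p = 0.00658), while the 1.30-fold difference in TGL was not called (edgeR adjusted p = 0.145). The call of both lines joined (log2 0.49 ± 0.13, edgeR adjusted p = 0.0239) was lost without control 0 (0.0772), control 1 (0.077) or TGH 1 (0.0505). Per kilobase, Sesn1 made up 97.3 ± 0.541% of the sestrin message in control, 94.2 ± 1.05% in TGL and 93.6 ± 0.828% in TGH.

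Of 19 tested genes of the GATOR and mTORC1 system 1 was higher and 2 were lower in TGH, where 32.4% of all genes were called. Ulk1, the kinase that starts autophagy, was lower in TGH (log2 -0.30 ± 0.08, edgeR adjusted p = 0.0163) and so was the GTPase gene Rragb (-1.27 ± 0.42, edgeR adjusted p = 0.0364), while the autophagy receptor Sqstm1 was higher (0.43 ± 0.12, edgeR adjusted p = 0.0172). Ulk1 (edgeR adjusted p = 0.0655) and Sqstm1 (0.0713) were not called without TGH 2, nor was Rragb without control 0 (0.0882), control 1 (0.0699), control 3 (0.0616), TGH 0 (0.087) or TGH 1 (0.134). The median log2 fold change of the 19 genes in TGH was 0.08. Mtor itself had -0.11 ± 0.09 in TGH (edgeR adjusted p = 0.368).

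Among 14 p53 targets other than the sestrins, Cdkn1a, the cell cycle inhibitor p21, was lower in TGH (log2 -2.03 ± 0.51, edgeR adjusted p = 0.0107, and 0.0557 without TGH 1) and Eda2r was higher (0.90 ± 0.15, edgeR adjusted p = 0.000758). These 2 calls of the 14 became 4 without TGL 2. These counts, and those of FoxO and ATF4 targets that follow, stand beside the 32.4% of all genes called in TGH. FoxO targets counted 1 higher and 3 lower of 9 in TGH, where the mitophagy genes Bnip3 (-0.54 ± 0.11, edgeR adjusted p = 0.00293) and Pink1 (-0.32 ± 0.07, edgeR adjusted p = 0.00488) were lower. The call of Trim63 among them ended without control 2 (edgeR adjusted p = 0.0522), TGH 0 (0.0587), TGH 1 (0.0677) or TGH 2 (0.131), with the replicate block (0.0584) and with other groups in the fit (0.0573), and that of Gabarapl1, the gene called higher, without TGH 2 (0.0637). ATF4 targets counted 2 higher and 5 lower of 11 (1 higher and 3 lower without TGH 0, 1 and 2 without TGH 1), with Asns (-1.40 ± 0.37, edgeR adjusted p = 0.0144), Chac1 (-1.86 ± 0.54, edgeR adjusted p = 0.0214) and Vldlr (-0.40 ± 0.08, edgeR adjusted p = 0.00201) lower and Slc7a11, also a target of Nrf2, higher (2.05 ± 0.36, edgeR adjusted p = 0.00122). Chac1 was not called without TGH 0 (edgeR adjusted p = 0.0768) or TGH 1 (0.0968), nor Asns without TGH 1 (0.0752), nor Ddit4 without control 0 (0.0515), control 1 (0.0639), TGH 0 (0.0916) or TGH 1 (0.068). Psat1, the second gene called higher (0.56 ± 0.20, edgeR adjusted p = 0.0493), was not called by DESeq2 (0.113), without the low-count filter (0.0677), with other groups in the fit (0.0618) and in 9 of the 10 fits without 1 library (0.0517 to 0.181). The medians of these 3 lists in TGH were 0.03, -0.29 and -0.42 on the log2 scale. Sesn2, a shared target of ATF4 and Nrf2, had 0.03 ± 0.20 beside them.

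The genes whose pattern over the 10 libraries was nearest to a member were sought among 11877 genes by the root mean square difference of log2 CPM centred on control. Nearest to Srxn1 were Gclm (0.20), the modifier subunit of glutathione synthesis, Lix1 (0.30) and Tspan17 (0.43). Nearest to Prdx6 were Olfm1 (0.35), Pgd (0.36), an enzyme of the pentose phosphate pathway, and Ttll7 (0.39). Sesn1 had Pik3r1 (0.21), a regulatory subunit of PI3 kinase, Dcbld1 (0.21) and Herpud1 (0.23) as nearest. Pik3r1 stood at 231 to 348 CPM in control, 109 to 175 in TGL and 123 to 144 in TGH. Olfm1, Pgd and Ttll7 reached 36.2, 154 and 107 CPM in TGH 1 and 28.6 to 28.8, 131 to 152 and 90.3 to 94.3 CPM in the other TGH libraries, so none showed a step in TGH 1 like that of Prdx6.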

How the data were processed

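RNA of left ventricles was sequenced from 10 TruSeq libraries. The submitters' processing notes name bcl2fastq 1.8.4 and Trim Galore 0.4.0, with Novoalign and SAMtools, and mouse build GRCm38. The sources used here give neither the counter nor the strand of counting. One deposited table holds whole-number counts for each gene and library. Per the file headers it also holds a mean signal (baseMean), a log2 fold change and its error, the Wald score and a p-value, raw and adjusted, of TG against control, made by the authors with DESeq2 1.18.1 per the submitters' processing notes. Total counts were 7076319 to 10896535 per library.

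Counts were tested with edgeR 4.0.16 in R 4.3.3 (filterByExpr by group, TMM factors of 0.9395 to 1.0761, quasi-likelihood F test, Benjamini-Hochberg adjustment over all tested genes, threshold 0.05). TG against control was fitted with 2 groups and the other comparisons with 3 groups in 1 fit. The biological coefficient of variation was 17.09% and 13.87%. A standard error is the log2 fold change divided by the root of the F statistic. Genes without a symbol held 0.777% of counts. CPM per kb used merged exons of GENCODE vM21, whose coordinates matched the table for all 10 genes. Promoters came from RefSeq on GRCm38.p6.

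The members and lists were chosen with earlier results of these data known. The 10 genes, Nfe2l2 and Keap1 were always to be named, then up to 4 genes of a list by smallest adjusted p, genes needed to say that a neighbour was not called, and the 3 nearest genes of Srxn1, Prdx6 and Sesn1. Keap1 was higher in TGH (log2 0.57, edgeR adjusted p = 8.72e-05). Alternatives were DESeq2 1.42.0, RLE size factors, no filter, the replicate number as a block, 1 CPM or more in 4 libraries or more, other groups in the fit and each library left out. The length of the principal transcript was added after seeing the data. The code was tested on simulated counts.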

Additional observations from a re-analysis of the deposited data

Results flagged for a closer look

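Prdx6 in TGH 1, at 1832 CPM, was set apart from the other 5 transgenic libraries, the gap to the nearest being 0.825 of the whole range which is past the 95% critical value of Dixon's test for 6 samples. It was the 1 flag among 20 sets of a gene and a group examined, and chance flags about 1 in 20. The TG group joins 2 lines, and among the TGH libraries alone TGH 1 stood 2.56-fold above the next. Only 14 of 14333 genes stood at least as far above both other TGH libraries there. Of 1594 genes with a mean of 100 CPM or more, Prdx6 was the 1 gene at least 2-fold above in TGH 1, against 0 in TGH 0 and 8 in TGH 2. Among genes near it on chromosome 1, those named here had ratios of TGH 1 to the mean of the other TGH libraries of 0.647 (Ankrd45), 1.1 (Klhl20), 1.34 (Cenpl), 0.641 (Gas5) and 1.31 (Zbtb37), beside 2.59 for Prdx6. The immediate early genes Egr1 (97.3 CPM) and Fos (46.7 CPM), named after their values were seen, were also high in TGH 1, against 9.60 and 9.19 CPM and 4.57 and 5.95 CPM in the other TGH libraries. The part of any of these in the value of Prdx6 was not tested.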

How the results depend on the processing

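All calls on Srxn1, and all calls on Prdx6 and Sesn1 in TGH against control, held under every alternative run. Of the members' log2 fold changes under an alternative, 584 kept direction and side of the threshold, 29 lost a call, 8 gained one and 19 changed sign, all of them uncalled. The genes called in TG against control numbered 2477, but 1338 with the replicate block and 3727 with 3 groups in the fit, and the members called 6 but 3 with the block, which lost Prdx1 (edgeR adjusted p = 0.0687), Prdx4 (0.057) and Sesn3 (0.0567). The block also ended the call of Prdx6 in TGH against TGL (edgeR adjusted p = 0.0569). Members called in TGH against TGL were 4, but 2 in the fit of the 2 lines alone. With 1 library left out, genes called ranged from 1182 to 3551 in TG, 457 to 1399 in TGL (913), 3108 to 5017 in TGH (4700) and 730 to 1599 in TGH against TGL (1399), and members from 4 to 6, 2 to 4, 8 to 9 and 1 to 4. Counts of genes moved by over 1.5 times in TG without control 0 (1225), control 1, TGH 0 (1616) or TGH 1 (1592), in TGL without control 0 (562), control 1 (554) or any TGL library, in TGH without TGH 1, and in TGH against TGL without TGL 1 (803) or TGH 1. The members of TGH against TGL were 1 without TGL 1 or TGL 2 and 2 without TGH 1.

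The replicate numbers were not used to pair the samples in the main fits. Same-numbered libraries had correlations of deviations of -0.053 to 0.335, with 2 of 9 over 0.1. The highest, 0.335, was that of TGL 2 with TGH 2. Pairs with different numbers ran from -0.26 (TGL 0 with TGH 2) to 0.152 (TGL 0 with TGH 1). Whether libraries of the same number share a factor was not tested. The sign of Sesn2, which was never called, changed with the replicate block in TG (-0.061) and TGH (-0.034). With 1 library left out its log2 fold changes ran from -0.069 to 0.15 in TG, -0.188 to 0.116 in TGL, -0.04 to 0.179 in TGH and -0.018 to 0.222 in TGH against TGL. Also uncalled, Prdx2 (-0.055 to 0.073) and Prdx3 (-0.01 to 0.086) changed sign in TGL without TGL 0, and Sesn1 between the lines (-0.19 to 0.084) without TGL 2, TGH 0 or TGH 1. The cause was not tested. Sesn2 had 23 to 44 counts a library.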

Other observations

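Copies and overlapping genes of the peroxiredoxins gave values of their own. The processed pseudogene Gm7204, which shares 50-base words with Prdx1, stood at 26.5 to 31.4 CPM in control and 37.1 to 52.6 CPM in TGH and was higher in TGH (log2 0.68 ± 0.14 SE, edgeR adjusted p = 0.00335). Tdpx-ps1, which shares words with Prdx2, went from 32.9 to 38.9 CPM in control to 46.8 to 50.4 CPM in TGH (0.46 ± 0.08, edgeR adjusted p = 0.00153). Trmt112, on the strand opposite Prdx5, was higher in TGH (0.34 ± 0.12, edgeR adjusted p = 0.0457) while Prdx5 was lower, but DESeq2 (adjusted p = 0.124) and most fits without 1 library did not call it (0.0532 to 0.171 where it was lost). Counts of a copy can include reads of the parent gene, and the division of reads was not tested.

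The spread of Sesn1 and Srxn1 between control libraries, with coefficients of variation of 32.0% and 30.2%, was above that of Prdx1 to Prdx6, at 2.29% to 7.86%. Srxn1 was at 41.6 and 41.7 CPM in control 0 and control 1 and at 25.2 and 23.6 CPM in control 2 and control 3, and Nfe2l2 at 164 and 145 CPM in the first pair and 88.3 and 122 CPM in the second. The order of the 2 genes differed within the transgenic groups. In TGL 0, 1 and 2 Nfe2l2 was at 156, 129 and 182 CPM and Srxn1 at 135, 161 and 153 CPM. In TGH 0, 1 and 2 Nfe2l2 was at 254, 182 and 244 CPM and Srxn1 at 399, 442 and 692 CPM. A link between the 2 genes across libraries was not tested.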
